A study of Mus musculus with 6 samples.

Results

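The SLAM family receptors are adhesion and signalling receptors of blood cells, and the SAP family adaptors carry their signal inside the cell. The group examined here held 9 of the 21887 protein-coding genes placed on the mouse chromosomes. It was fixed by name: Cd244a, Cd48, Slamf7, Ly9, Cd84, Slamf1 and Slamf6 encode receptors, and Sh2d1a and Sh2d1b1 encode adaptors. The genes were matched to the peak lists by Entrez identifier, under which Cd244a stands as Cd244. Of the 9, 7 were listed in the H3K4me3 peak lists of both genotypes, and Slamf1 and Slamf6 in neither. Among 17492 genes with a RefSeq promoter, 48.1% had a peak within 1 kb of the start site in both genotypes. That set includes 7 of the members, and 5 of these had such a peak.

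The cells were natural killer (NK) cells, lymphocytes that kill infected or transformed cells. They came from spleens of Tcf7-/- mice (KO, strain B6.129 Tcf7Tm1Cle in the labels) and of Tcf7+/+ mice (WT, strain B6), and both had been grown for 5 days in 500 ng/mL IL-2. The Tcf7 gene makes Tcf1, a transcription factor of the Tcf/Lef family, and chromatin was precipitated with an antibody to Tcf1 or to H3K4me3, a histone mark of active promoters. Each group held 1 library, so no difference has a replicate check, no p-value is given, and intervals cover counting error only. The labels do not say how many mice gave the cells. Because the strain labels differ with the genotype, strain and genotype cannot be told apart.

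Most SLAM receptors bind a copy of themselves on a neighbouring cell, whereas CD244 binds CD48, a receptor anchored in the membrane by a lipid. Tyrosine motifs in the receptor tails bind the adaptor SAP, encoded by Sh2d1a, which brings in the kinase Fyn, or the adaptor encoded by Sh2d1b1, which signals through phospholipase C. Without these adaptors the tails can instead bind phosphatases and inhibit the NK cell. Loss of SAP causes X-linked lymphoproliferative disease in humans, in which NK cells respond poorly to cells infected by Epstein-Barr virus.

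The 7 receptor genes lie in a cluster on chromosome 1, from 171558718 to 171948958 (GRCm38), a stretch of 390.2 kb. Another gene, Tma7-ps, lies in it between Cd48 and Slamf1. Sh2d1b1 lies 1.27 Mb from the cluster on the same chromosome (170277318 to 170286769), and Sh2d1a lies on chromosome X (42502565 to 42522097). The marked receptor promoters were Cd244a, Ly9, Slamf7, Cd48 and Cd84. From the end of the WT peak at Cd48 to the start of that at Cd84, 156.4 kb held no H3K4me3 peak, and this stretch contains Slamf1. A further 184.1 kb without a peak, from Cd84 to Vangl2, contains Slamf6.

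**Figure D1:**
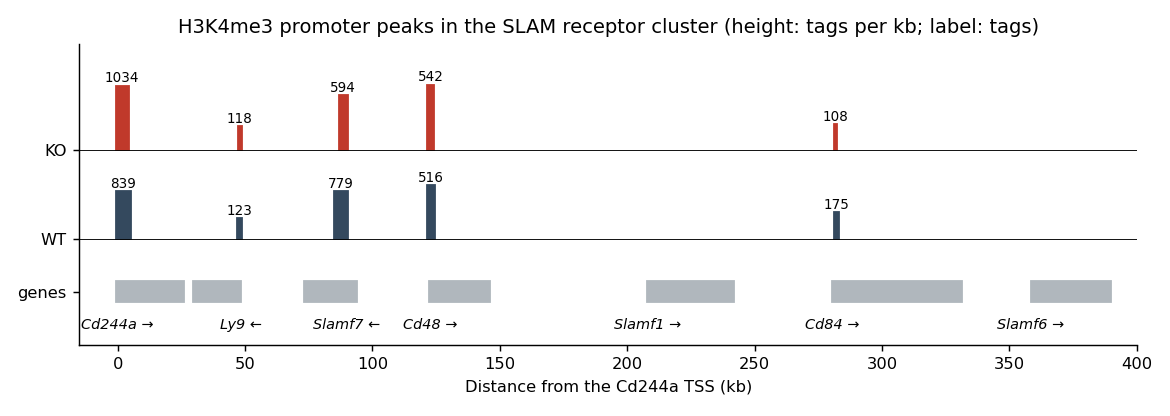
H3K4me3 promoter peaks of the KO library (upper row) and the WT library (lower row) along the SLAM receptor cluster, by distance from the start site of Cd244a in kb. Bar height gives tags per kb of peak, the number above each bar gives its tags, and grey boxes are genes with arrows for their direction. Of the 7 genes, 5 carry a peak in both genotypes and Slamf1 and Slamf6 carry none.

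Sequence upstream of the start sites was compared first, since marked and unmarked members lie in the same cluster. RefSeq promoters were given for 7 of the 9 members. The 250 bases upstream of the start site are shown for the receptor and ligand CD244 and CD48, whose promoters were marked, and for the unmarked Slamf1 and Slamf6. Capitals mark each CpG, a C followed by a G. All 4 are on the plus strand of GRCm38.p6, at chr1:171558943-171559192, chr1:171681742-171681991, chr1:171766882-171767131 and chr1:171917212-171917461 in the order shown.
Cd244a: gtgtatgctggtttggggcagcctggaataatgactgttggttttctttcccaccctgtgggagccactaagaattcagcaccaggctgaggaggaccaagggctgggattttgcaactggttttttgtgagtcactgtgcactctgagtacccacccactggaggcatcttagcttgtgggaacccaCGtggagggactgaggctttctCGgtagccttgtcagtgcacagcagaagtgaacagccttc
Cd48: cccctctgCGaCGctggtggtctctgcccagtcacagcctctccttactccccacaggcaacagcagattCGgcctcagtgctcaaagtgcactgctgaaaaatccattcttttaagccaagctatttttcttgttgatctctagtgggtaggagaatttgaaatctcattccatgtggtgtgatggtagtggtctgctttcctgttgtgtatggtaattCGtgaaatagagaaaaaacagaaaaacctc
Slamf1: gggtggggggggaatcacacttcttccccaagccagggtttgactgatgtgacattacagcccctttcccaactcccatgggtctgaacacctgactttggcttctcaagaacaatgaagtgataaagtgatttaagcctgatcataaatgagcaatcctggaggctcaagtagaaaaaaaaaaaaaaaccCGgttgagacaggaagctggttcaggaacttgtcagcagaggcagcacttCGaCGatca
Slamf6: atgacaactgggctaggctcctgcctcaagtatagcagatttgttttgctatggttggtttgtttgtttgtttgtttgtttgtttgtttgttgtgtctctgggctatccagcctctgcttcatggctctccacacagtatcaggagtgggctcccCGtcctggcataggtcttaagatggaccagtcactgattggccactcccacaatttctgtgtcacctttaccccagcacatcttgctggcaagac

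All 7 windows were poor in CpG, whether marked or not. Cd48 held 4 CpG, Slamf7, Cd84 and Slamf1 held 3 each, Cd244a held 2, and Sh2d1b1 and Slamf6 held 1 each. Over 21263 promoter windows of the same length the median was 10, with 17 at promoters marked in both genotypes and 3 at promoters marked in neither. Windows with 4 CpG or fewer belonged to a gene marked in both genotypes in 15.3% of 7170 cases, against 68.3% of the windows with more. Of the 7 members, 5 carried the mark in both genotypes.

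Short motifs were searched on both strands of the same windows. The core Tcf/Lef words CTTTGAT and CTTTGAA, which share their first letters, occurred in 0 of the 7, and in 6.73% of all windows. The Runx word TGTGGT occurred at Cd48, Cd84 and Sh2d1b1 (12.4% of all windows), and the Ets word AGGAAG at Slamf7 and Slamf1 (28.5%). The T-box word GGTGTGA occurred at Cd48 (3.08%), where it overlaps the Runx word. A match or its absence describes these letters in this window only.

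The level of the mark was counted as tags, the reads in all called peaks of a region within 1 kb of the start site (TSS). Peaks of both libraries that overlapped were merged into regions first. Tags were counted by the peak caller inside called peaks only, so reads beyond a peak's edge are not included. In H3K4me3 chromatin, 11074 peaks with 7507763 tags were listed for KO and 13771 peaks with 6635272 tags for WT, and sequencing depth was not given in the sources used here. The ratio of KO over WT tags had a median of 1.20 (0.27 on the log2 scale) among 10106 genes with a promoter peak in both libraries. All ratios that follow are log2 values relative to that median unless stated.

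The receptor CD244 and its ligand CD48 had marked promoters in both genotypes, close to the median gene in their ratio. Cd244a held 1034 tags in KO (95% Poisson interval 972 to 1099) and 839 in WT (783 to 898), the most of any member in each library. Its ratio was 0.04 (95% counting interval -0.10 to 0.17), so KO and WT differed by no more than counting error relative to the median gene. Cd48 held 542 tags in KO (497 to 590) and 516 in WT (472 to 563), a ratio of -0.20 (-0.37 to -0.02). Taken per kb of called peak, the ratio of Cd48 was -0.02 (-0.20 to 0.16), and that of Cd244a was 0.13.

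Cd244a also carried one of the widest promoter peaks. Its peak covered 5146 bp in KO and 5705 bp in WT, at percentiles 97.5 and 97.6 of all marked promoters in those libraries. The mark reached 4.31 kb downstream of the TSS in KO and 5.15 kb in WT. Its density was lower than that of most promoters, at 200.9 tags per kb in KO (percentile 23.7) and 147.1 in WT (percentile 27.8). A non-coding gene, Gm35200, overlaps this promoter, and the peak cannot be divided between the 2 genes.

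Slamf7 encodes an activating NK cell receptor that binds itself and signals through the adaptor of Sh2d1b1. It held 594 tags in KO (547 to 644) and 779 in WT (725 to 836). Its ratio of -0.66 (-0.81 to -0.50) lay at percentile 3.9 of all genes marked in both. The WT peak was wider, with 3492 bp in KO and 5284 bp in WT, and per kb of peak the ratio was -0.12 (-0.27 to 0.04). The difference was thus smaller per kb than by tags. Each density was taken over that library's own called peak, so a shorter peak and a weaker signal cannot be told apart here.

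The edge that differed at Slamf7 was the one inside the gene. Upstream the peaks ended 0.45 kb from the TSS in KO and 0.49 kb in WT, and downstream 3.04 kb in KO and 4.80 kb in WT. The summit, the highest point of the peak, lay 0.90 kb downstream in KO and 0.94 kb in WT. A further WT peak of 40 tags, after a gap of 286 bp, began 5.08 kb downstream of the TSS, and the KO list had no peak there.

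Cd84, which encodes a receptor that binds itself and is also carried by B cells, T cells and myeloid cells, had the lowest ratio of the group. It held 108 tags in KO (89 to 130) and 175 in WT (150 to 203), a ratio of -0.96 (-1.32 to -0.61) at percentile 1.4 of all genes. Its peaks covered 1344 bp in KO and 2146 bp in WT, with 80.4 tags per kb in KO and 81.5 in WT. Per kb of peak the ratio was -0.34 (-0.70 to 0.01). Neither peak covered the annotated TSS: they began 0.52 kb downstream of it in KO and 0.50 kb in WT, so Cd84 counts as unmarked when the peak must cover the TSS itself.

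Ly9, whose receptor binds itself and is found on T and B cells, was the weakest marked receptor in WT. It held 118 tags in KO (98 to 141) and 123 in WT (102 to 147), with a ratio of -0.33 (-0.70 to 0.05) that did not exceed counting error. Its KO peak had a false discovery rate of 1.01%, against 0.03% in WT, as given by the authors' peak caller. With a limit of 1% Ly9 was marked in WT alone.

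Slamf1, the founding receptor of the family, and Slamf6, which in mice marks T cells that keep Tcf1 during chronic infection, had no H3K4me3 peak in either genotype. For both, the nearest peak was that at Cd84. It lay 73.08 kb from the TSS of Slamf1 in KO and 73.06 kb in WT, and 75.91 kb from that of Slamf6 in KO and 75.12 kb in WT. Peak lists hold only regions past the caller's threshold, and the smallest listed peak held 22 tags in KO and 17 in WT, so a weak mark at these promoters would not be seen. Of 17492 genes with a RefSeq promoter, 46.1% were marked in neither library.

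**Figure D2:**
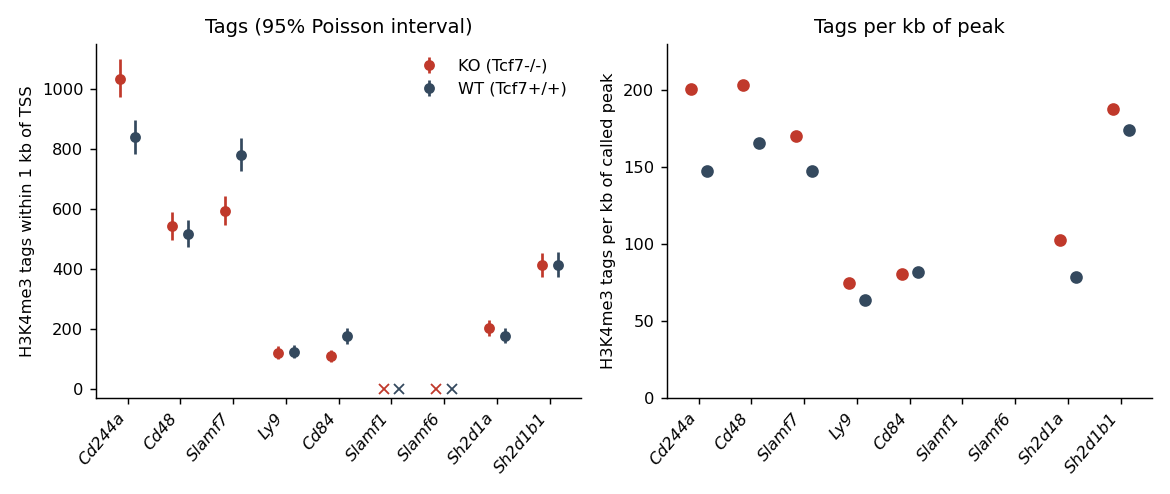
H3K4me3 at the 9 promoters in the KO and WT library, as tags with 95% Poisson intervals (left) and as tags per kb of called peak (right). Crosses at 0 stand for no listed peak. Tags are as deposited, not scaled to depth. Cd84 and Slamf7 are the members whose tag intervals do not overlap with KO below WT. Those of Cd244a do not overlap with KO above WT, but relative to the median gene its ratio is 0.04 (-0.10 to 0.17).

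Both adaptor genes were marked in both genotypes. Sh2d1b1 held 411 tags in KO (372 to 453) and 413 in WT (374 to 455). Relative to the median gene its ratio was -0.27 (-0.47 to -0.07), and -0.21 (-0.42 to -0.01) per kb of peak, the only member whose interval lay below 0 on each measure. As deposited, its tags in KO and WT were equal within counting error. Its close relative Sh2d1b2, the neighbouring gene, was marked in WT alone, with 63 tags. Genes marked in WT alone made up 10.9% of all genes marked in either library, with a median of 75 tags.

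Sh2d1a held 201 tags in KO (174 to 231) and 176 in WT (151 to 204). Its ratio of -0.07 (-0.37 to 0.23) did not exceed counting error. In WT a separate peak of 112 tags followed after a gap of 131 bp, from 1.65 to 3.69 kb downstream of the TSS, and the KO list had no peak there. With a window of 2.5 kb this peak was counted, WT then held 288 tags, and the ratio became -0.78. A weak WT peak of 40 tags, at -76.88 kb from the TSS, was also assigned to Sh2d1a in the authors' deposited list and had no KO counterpart.

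Sh2d1a is X-linked, so the sex chromosomes were examined. The labels give no sex. Among Y-linked genes, Ddx3y (116 tags), Eif2s3y (96), Uty (80) and Kdm5d (48) were marked in KO, and 0 in WT. The 307 X-linked genes marked in both had a median ratio of 0.07, against 0 for all genes, and Sh2d1a stood at percentile 30.3 among them. Sex and genotype cannot be told apart in these libraries.

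Across the group, no marked member passed a 2-fold difference. Of the 7 marked in both, 0 had a ratio beyond 1 in size on the log2 scale, a bound passed by 1.26% of all genes, and 0 members were marked in KO alone (0.264% of genes marked in either library) or in WT alone (10.9%). Cd84, at -0.96, lay just inside this bound. A bound of 1.5-fold was passed by Slamf7 and Cd84, 2 of 7, against 5.52% of all genes. Both were lower in KO, as were 4.75% of all genes by that much. With tags as deposited or scaled to total tags Cd84 alone passed, and with a window of 0 kb Slamf7 alone. With a window of 2.5 kb Slamf7, Cd84 and Sh2d1a passed. The share of all genes past 1.5-fold was not counted in these settings. Per kb of peak 0 of 7 passed that bound in either direction, against 4.52% of all genes.

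Smaller differences leaned one way on the centred scale. Of the 7, 6 had a ratio below 0, against 50% of all genes by construction, but 5 of 7 did per kb of peak (50%), 5 with libraries scaled to total tags (32.9%), and 4 with tags as deposited (13.3%). The counting interval lay below 0 for Cd48, Slamf7, Cd84 and Sh2d1b1 (4 of 7, against 21.8% of all genes) and above 0 for 0 of 7 (19% of all genes). The group's median was -0.27, against 0 for all genes, and -0.09 per kb of peak. Neighbouring genes share a chromosome region, and 5 of the 7 lie in 1 cluster, so the members are not independent.

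**Figure D3:**
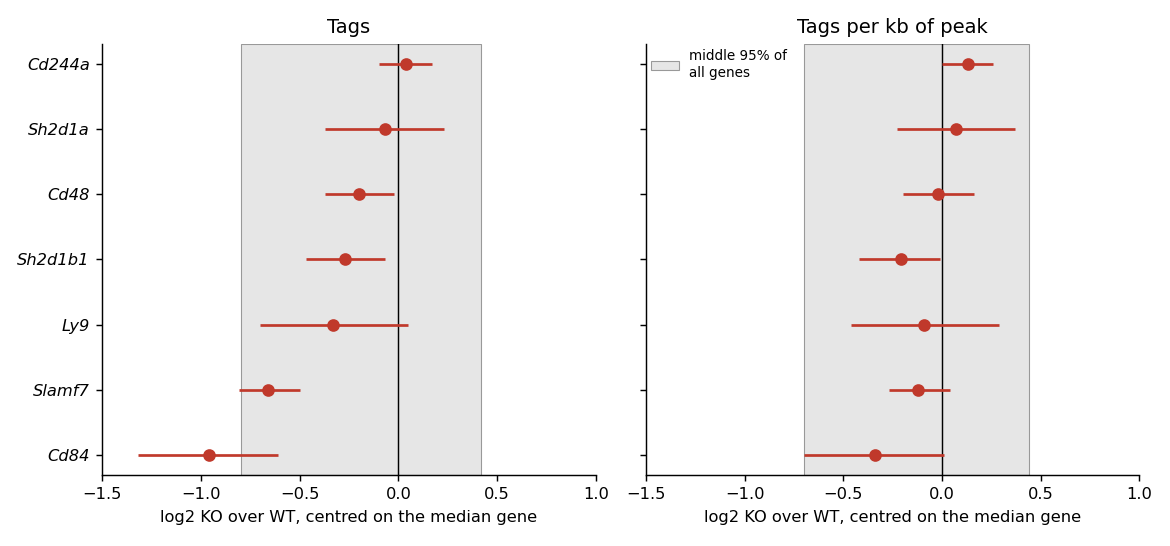
Log2 ratio of KO over WT at the 7 marked members, centred on the median gene, from tags (left) and tags per kb of peak (right), with 95% counting intervals. The grey band holds the middle 95% of all genes (-0.79 to 0.42 for tags, -0.70 to 0.44 per kb). Cd84 lies outside the band by tags and no member does per kb; without centring, Cd244a, Sh2d1a and Cd48 are above 0.

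The width of the mark differed in the same direction at every marked member. The KO peak was narrower at 7 of 7, against 64.8% of all genes marked in both. The ratio of KO over WT width had a median of 0.85 over the members and 0.97 over all genes, and was lowest at Cd84 (0.63, percentile 1.2) and Slamf7 (0.66, percentile 1.8). The downstream edge, inside the gene, lay less far downstream in KO at 7 of 7 (61.7% of all genes), by 1753 bp at Slamf7, 846 bp at Cd244a, 786 bp at Cd84 and between 30 and 410 bp at the others. A difference of at least 500 bp, found at these 3, occurred at 5.17% of all genes. That share covers peaks of all widths, whereas the WT peaks of Cd244a and Slamf7 were among the widest (percentiles 97.6 and 96.7). The width ratio of Cd244a was 0.90, at percentile 24.8. The upstream edge lay further downstream in KO at 5 of 7 (59.9% of all genes), by 16 bp at Cd84, whose peaks begin inside the gene, and further upstream at Cd244a and Sh2d1b1.

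**Figure D4:**
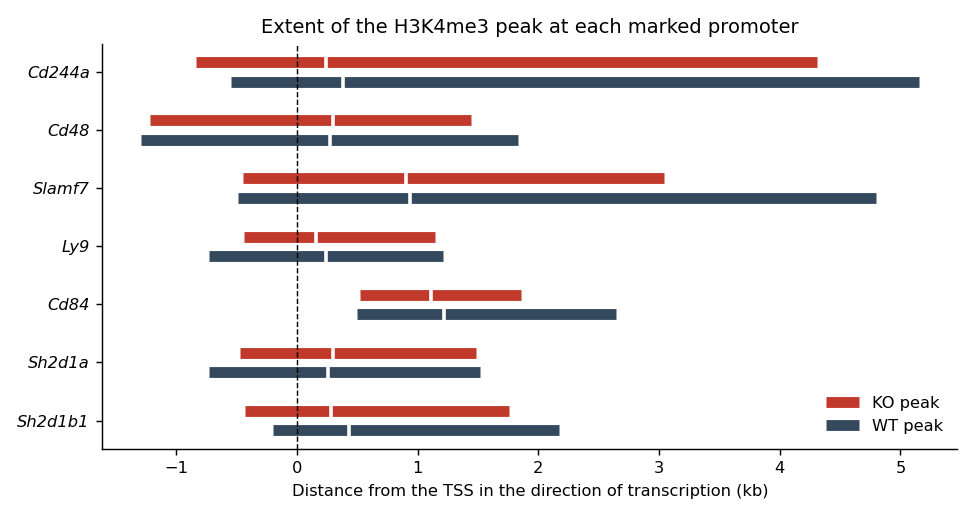
Extent of the H3K4me3 peak at the 7 marked promoters in KO (upper bar of each pair) and WT (lower bar), by distance from the TSS in kb, with positive values inside the gene; white ticks are summits. The WT bar ends further inside the gene at each member, most of all at Slamf7, and the peaks of Cd84 begin downstream of the TSS.

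The lists themselves also differed in enrichment. The median fold enrichment over background, the authors' value, was 18.38 for KO peaks and 30.82 for WT peaks. For Slamf7 it was 16.94 in KO and 26.20 in WT, and for Cd84 10.74 in KO and 14.98 in WT. It was lower in KO at 6 of 7 members, as was the median of the whole list. The share of all genes with a lower value in KO was not counted. At Sh2d1a the fold enrichment was 11.23 in KO and 10.91 in WT, and the KO peak was narrower. The median width of all listed peaks was 2073.5 bp in KO and 1974.0 bp in WT, but the 2 lists hold different peaks. Over genes marked in both, the median width was 2228.5 bp in KO and 2317.5 bp in WT. The part of enrichment or of the caller's threshold in the narrower KO peaks was not tested.

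Marker genes were examined next, since Cd84, Ly9 and Slamf1 are also genes of other blood cells. All 9 NK cell markers were marked in both genotypes, with 12345 tags in KO and 9531 in WT in sum. Their ratios ran from -0.76 (Il2rb) to 0.70 (Cd160), with a median of 0.18. Of 8 T cell markers, 1 was marked in KO and 3 in WT, with 161 tags in KO and 375 in WT in sum. Cd28 held 161 tags in KO and 276 in WT, Cd3e (64 tags) and Cd3d (35 tags) were marked in WT alone, and Cd3g, Cd4, Cd8a, Cd8b1 and Cd5 had no peak. None of 6 B cell markers had a peak (0 in either list), 1 of 6 myeloid markers did (Cd14, 95 tags in WT alone), and of 4 erythroid markers Klf1 was marked in both (227 tags in KO and 264 in WT) and Epor in WT alone (56 tags). The part of other cells in the ratios of Cd84 and Ly9 was not tested.

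Tcf1 peaks were then sought in and within 50 kb of each gene. The WT Tcf1 list held 866 peaks, with a median false discovery rate of 26.63%. It had 0 near the 9 genes, against 4.39% of all protein-coding genes with such a peak. For 9 genes, 7 of them in 1 cluster, a count of 0 is close to that share. The nearest WT peak to the receptor cluster lay 956.6 kb beyond Slamf6, with 16 tags at a false discovery rate of 27.57%. The nearest to Sh2d1a lay 2262 kb away, with 24 tags at a rate of 27.4%. The KO Tcf1 list, made without the target protein, held 5139 peaks and also had 0 within 50 kb, against 20.6% of genes. The closest, 50.77 kb beyond the RefSeq end of Sh2d1a, held 27 tags at a false discovery rate of 100%, and it lay 49.2 kb from the Ensembl end of the gene. Within 100 kb, 1 member (Sh2d1a) had a KO peak, against 32.4% of genes, and 0 had a WT peak, against 7.36%; within 10 kb there were 0 in each, against 9.17% for KO and 2.06% for WT. At the target itself, Tcf7, a WT Tcf1 peak of 123 tags was called and the KO list had none, while H3K4me3 there held 535 tags in KO and 525 in WT. The H3K4me3 peaks of the group thus had no listed Tcf1 peak beside them.

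The signalling proteins behind the receptors were taken from a list of 20 genes of kinases, phosphatases, linkers and relatives of the receptors. Of these, 17 were marked in both genotypes, 1 (Sh2d1b2) in WT alone, and Slamf8 and Slamf9 in neither. None passed a 2-fold difference (0 of 17, against 1.26% of all genes). The median ratio was -0.10, against 0 for all genes, and 0.06 per kb of peak. The interval lay below 0 for 7 of the 17 (21.8% of all genes) and above 0 for 3 (19% of all genes).

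The 4 list members with the most tags lay close to the median gene. Hcst, an adaptor of other activating NK receptors, held 3261 tags in KO and 2581 in WT (0.07, and 0.27 per kb of peak). Its region is shared with Tyrobp and Nfkbid. Pik3cd, a lipid kinase subunit, held 2947 in KO and 2647 in WT (-0.11, -0.19 to -0.03, and 0.05 per kb). Csk, which restrains Src family kinases, held 1833 in KO and 1525 in WT (0.00, and 0.13 per kb). Fyn, the kinase that SAP recruits, held 1528 in KO and 1392 in WT (-0.13, -0.24 to -0.03), and 0.07 per kb of peak.

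Of the 4 phosphatases in the list, Ptpn6, Ptpn11 and Inppl1 had intervals below 0 and Inpp5d had one above 0; with tags as deposited, Inppl1 alone was below 0. Inpp5d held 1094 tags in KO and 770 in WT (0.24, 0.11 to 0.38), and Ptpn6 held 473 in KO and 451 in WT (-0.20, -0.39 to -0.01, but 0.40 per kb of peak). Ptpn6 shares a region with Grcc10, so its tags cannot be divided between the genes. With a window of 0 kb Ptpn6 was marked in 1 library alone. Ptpn11 held 958 tags in KO and 907 in WT (-0.19, -0.32 to -0.05, and -0.13 per kb). The lowest ratio of the list was that of Inppl1, a relative of Inpp5d, with 415 tags in KO and 620 in WT (-0.85, -1.03 to -0.66). It was -0.88 per kb of peak, since its width was similar, 2538 bp in KO and 2568 bp in WT. Lat, a membrane linker, held 319 in KO and 371 in WT (-0.48, and -0.72 per kb). Inpp5d, Ptpn6, Ptpn11, Inppl1 and Lat were named after their values were seen.

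**Figure D5:**
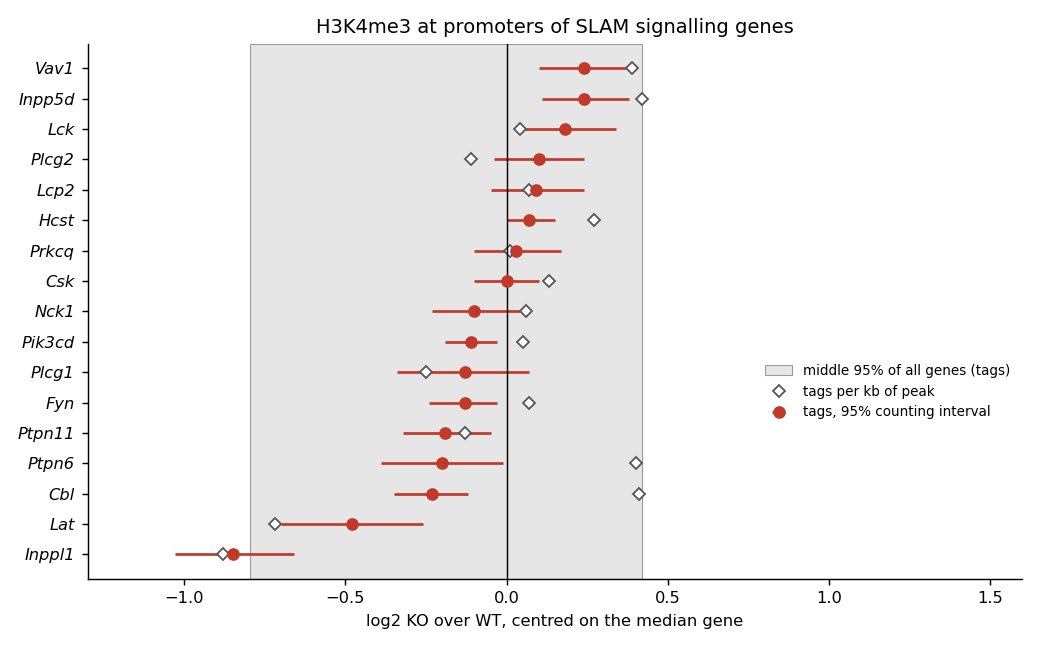
Log2 ratio of KO over WT for the 17 SLAM signalling genes marked in both genotypes, centred on the median gene. Red points are tags with 95% counting intervals, white diamonds are tags per kb of peak, and the grey band is the middle 95% of all genes. Inppl1 lies below the band on tags, and Ptpn6 and Cbl are among the genes below 0 by tags and above 0 per kb. Without centring, 2 of the 17 are below 0, against 13.3% of all genes.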

How the data were processed

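H3K4me3 and Tcf1 peaks were compared between KO and WT NK cells, with 1 library per group and peak lists for 4 of the 6 libraries; the input libraries were not analysed here. Cells were fixed for 10 minutes in 1% formaldehyde, per the labels, and DNA was read from a single end for 100 bases, per the series' design text. MACS 1.4 and Bowtie2 2.1.0 are among the tools in the submitters' processing notes, as are, with no role given, GRCm38, mm10 and GRCh37 among builds; the lists hold mouse positions, read here as GRCm38. The control track and the peak caller's settings are not stated in the labels or headers. Per the file headers, the authors deposited for each peak a raw count of tags not scaled to depth, a score (10 times the negative log10 of the p-value, ceiling about 3100), a fold enrichment ratio over background, an FDR in percent and the peak width. Peaks were called per library.

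Rows were reduced to distinct peaks, and starts, counted from 0, were shifted to 1. TSSs came from RefSeq promoters (GRCm38.p6) for 17492 genes, and for 2511, among them Ly9 and Sh2d1a, from the RefSeq gene end on the strand in the lists. Strand was unknown for 1884 genes, which were left out. Overlapping H3K4me3 peaks of both libraries (at least 1 bp) were merged, regions within 1 kb of a TSS summed, and the log2 KO/WT ratio was centred on its median over genes with the mark in both libraries. Intervals of ratios are exact binomial (Clopper-Pearson) at 95%, intervals of tags are exact Poisson, and PCR copies were not identified. The ratio code was tested on simulated data.

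Members, gene lists and the naming rule were chosen with earlier results of these data known. All members are named; of the signalling list, genes beyond 2-fold or marked in 1 library, and the 4 with most tags. Alternatives were separate peaks, tags per kb, windows of 0 and 2.5 kb, other scalings, a minimum score of 100, a maximum FDR of 1%, a minimum of 100 tags, a 1.5-fold bound, distances of 10 and 100 kb and a 50% overlap. The work used scipy 1.17.1, pandas 2.3.3 and numpy 2.4.6 under Python 3.11.15, and figures were drawn with matplotlib 3.10.9.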

Additional observations from a re-analysis of the deposited data

How the results depend on the processing

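The members' median log2 ratio was -0.27. It was -0.09 per kb of peak and -0.01 with tags as deposited, and between -0.33 and -0.19 in the other settings. Values of single members under alternatives stayed within their counting interval in 54 cases and left it in 7. The 7 were Slamf7 (-0.12) and Cd84 (-0.34) per kb of peak, Sh2d1a (-0.78) with a window of 2.5 kb, and Cd244a (0.30), Cd48 (0.07), Slamf7 (-0.39) and Sh2d1b1 (-0.01) with tags as deposited. No member passed 2-fold in any setting run, and 1 (Ly9) was marked in WT alone at an FDR of at most 1%. At 1.5-fold 2 passed in the main setting, 3 with a window of 2.5 kb and 1 with a window of 0 kb. With tags as deposited or scaled to total tags 1 passed, and per kb of peak 0. In the signalling list the count of genes past 2-fold or marked in 1 library was 1. It became 2 at 1.5-fold and 2 with a window of 0 kb (with Ptpn6), and 0 with scores of at least 100, which remove the peak at Sh2d1b2. Members near a WT Tcf1 peak numbered 0 in every setting run, and near a KO peak 0, or 1 (Sh2d1a) within 100 kb. The causes were not tested, beyond what each setting leaves out. No paired analysis was possible because each group held 1 library, and no library could be left out. Low tag counts limit the weakly marked members most. The interval of Ly9, with 118 tags in KO and 123 in WT, spans -0.70 to 0.05. That of Cd84, with 108 tags in KO and 175 in WT, spans -1.32 to -0.61.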
